A study of Mus musculus with 4 samples.

Results

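This set of 10 genes, which myoblasts use at their surface to adhere, to fuse and to meet matrix, growth factors and nerve, was followed in C2C12 cells transfected with K97E lamin A or with wild-type (WT) lamin A. C2C12 is an established mouse myoblast line that can be kept as dividing precursors or driven into multinucleate myotubes. The 10 genes were chosen by name, and all 10 were found among the 55416 genes of the deposited files: the fusion genes Mymk and Mymx, the adhesion genes Cdh15 and Ncam1, the matrix and growth factor receptors Itga7, Sdc4 and Met, and the acetylcholine receptor genes Chrna1 and Chrnb1 with the receptor's organising kinase Musk. Both groups had the same C2C12 cells, given 3 µg of DNA with a lipid transfection reagent and taken 24 h later; they differed in the lamin A encoded by the DNA. K97E is a lamin A mutant of dilated cardiomyopathy. Each group had 2 libraries, and a group of cells without transfection was not analysed here. The cells are a transfected pool that also keeps its own Lmna, the gene of lamin A, and the labels give no share of cells that took up the DNA. The labels call the replicates biological without saying whether they came from separate cultures, so the p-values set differences against a spread between libraries that may be technical.

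Fusion of myoblasts needs recognition and adhesion first and the merging of membranes after it. M-cadherin and NCAM hold neighbouring cells together, the membrane proteins myomaker and myomixer then carry out hemifusion and pore formation, and genes of the acetylcholine receptor are switched on as the cells leave the cycle, under control of myogenic factors that bind E-box motifs. Integrin alpha 7 ties the cell to laminin, syndecan 4 is a heparan sulphate proteoglycan of the satellite cell surface, and MET is the receptor through which HGF activates and moves these cells. Several of these genes also make alternative proteins by including or skipping short coding exons.

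The sequences of those exons are shown because deposited exon coverage tells the forms apart more directly than the deposited transcript values. They were read from GENCODE release M21 transcripts on build GRCm38, in which these transcripts have the same exon lengths as in the deposited annotation. Capitals mark the alternative exon or exons, and the lower-case letters are 10 bases of the neighbouring exons on either side. The Ncam1 muscle-specific exons, of 15, 48 and 42 bases, lie on the minus strand within chr9:49535209-49541902, and the Ncam1 short exon, of 30 bases, which is placed inside an immunoglobulin domain, is at chr9:49550540-49550569 on the minus strand. The Itga7 pair, of 132 and 120 bases, is at chr10:128941445-128941576 and chr10:128941822-128941941 on the plus strand. The Musk exons, of 30 and 24 bases, are at chr4:58327326-58327355 and chr4:58356482-58356505 on the plus strand. All 8 exons are wholly coding, and every capitalised run is a multiple of 3 bases.
Ncam1 muscle-specific exons: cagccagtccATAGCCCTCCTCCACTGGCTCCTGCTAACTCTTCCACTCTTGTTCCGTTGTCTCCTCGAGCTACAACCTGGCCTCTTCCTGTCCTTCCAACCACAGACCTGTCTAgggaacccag
Ncam1 short exon: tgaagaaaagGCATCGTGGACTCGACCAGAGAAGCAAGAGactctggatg
Itga7 exon of 132 bases: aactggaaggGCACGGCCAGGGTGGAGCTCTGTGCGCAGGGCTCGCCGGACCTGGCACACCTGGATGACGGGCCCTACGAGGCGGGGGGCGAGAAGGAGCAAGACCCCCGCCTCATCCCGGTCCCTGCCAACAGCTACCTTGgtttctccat
Itga7 exon of 120 bases: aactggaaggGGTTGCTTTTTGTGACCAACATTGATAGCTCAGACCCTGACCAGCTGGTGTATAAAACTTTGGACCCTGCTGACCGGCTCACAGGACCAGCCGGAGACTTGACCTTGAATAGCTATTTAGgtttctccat
Musk exon of 30 bases: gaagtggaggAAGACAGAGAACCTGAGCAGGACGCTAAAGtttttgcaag
Musk exon of 24 bases: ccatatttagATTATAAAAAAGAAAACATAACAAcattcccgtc
The Itga7 exons are flanked by the same bases on both sides, since each stands in the other's place between the same neighbours.

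The promoters of the receptor subunit genes are shown because Chrna1 was the member with the smallest p in the comparison below, and Chrnb1 is its partner subunit. RefSeq promoter sequence, from 250 bases before to 50 bases after the start of the gene on build GRCm38.p6, was matched for 6 of the 10 genes: Cdh15, Chrna1, Chrnb1, Musk, Met and Sdc4. Capitals mark the E-box forms CAGCTG and CAGGTG, both strands searched, so that CACCTG counts as CAGGTG. The Chrna1 promoter lies at chr2:73580289-73580588 and the Chrnb1 promoter at chr11:69795888-69796187, both on the minus strand and both printed in the direction of transcription.
Chrna1 promoter: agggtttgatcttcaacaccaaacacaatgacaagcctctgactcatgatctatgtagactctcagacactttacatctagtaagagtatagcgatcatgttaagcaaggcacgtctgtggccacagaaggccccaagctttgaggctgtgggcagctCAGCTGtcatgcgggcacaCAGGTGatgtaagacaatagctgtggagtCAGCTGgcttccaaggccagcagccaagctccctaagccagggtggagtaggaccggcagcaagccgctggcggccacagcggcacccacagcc
Chrnb1 promoter: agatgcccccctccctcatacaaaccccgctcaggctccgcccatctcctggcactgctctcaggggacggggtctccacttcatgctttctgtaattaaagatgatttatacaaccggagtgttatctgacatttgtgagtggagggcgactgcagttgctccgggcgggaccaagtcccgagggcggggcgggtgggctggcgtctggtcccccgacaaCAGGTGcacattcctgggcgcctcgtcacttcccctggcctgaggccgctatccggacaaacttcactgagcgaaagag
The Chrna1 promoter held 3 such motifs, starting 92, 73 and 44 bases before the start of the gene, and the Chrnb1 promoter held 1, starting 29 bases before it. Musk had 1, at 68 bases before its start, Met had 1 beginning at base 26 after its start, and none of these letters occurred in the windows of Cdh15 and Sdc4. Of all 32851 promoters of the same length in the RefSeq table, 32.9% held at least 1 of these motifs and 7.4% held 2 or more. A match is a description of the letters and was not tested as a site.

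Levels are given as TPM, transcripts per 1000000, which are adjusted for gene length and for the size of the library, summed over the transcripts of a gene. Coverage in the files corresponded to between 89600000 and 115600000 reads of 100 bases per library, so that a level of 1 TPM rests on many reads while the values of Mymx rest on few. Lmna stood at 660 and 629 TPM with K97E and at 558 and 596 TPM with wild-type lamin A, a log2 fold change of 0.10 ± 0.10 (SE, limma adjusted p = 0.965), which does not check the labels. The cells carried myoblast markers, led by vimentin, Vim, at 3684 to 4174 TPM and desmin, Des, at 384 to 467 TPM, with Myf5 at 41.5 to 47.8 TPM; the differentiation regulator Myog was listed at 0 in 3 libraries and at 0.0959 TPM in WT replicate 2. Epithelial markers summed to 0.599 and 0.628 TPM with K97E and 0.410 and 0.628 TPM with wild-type lamin A, and their defining cadherin Cdh1 was at 0. Leukocyte markers summed to 7.49 and 5.01 TPM with K97E and 5.08 and 7.86 TPM with wild-type lamin A. Most of this was Cd68, at 3.17 to 5.48 TPM, and Cd163, at 1.14 to 2.82 TPM, with Adgre1 and Cd3e at 0.

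The order of the 10 genes had 4 steps that held in both groups and left 5 levels of expression. Sdc4, Met and Itga7 made the upper level, with every library of each between 125 and 217 TPM. Chrna1, Cdh15, Ncam1 and Chrnb1 made the middle level, between 32.7 and 51.8 TPM, and Musk stood alone below them at 17.1 to 18.5 TPM. Mymk, at 0.926 to 3.83 TPM, and Mymx, at 0 to 0.547 TPM, were the lowest. Within the upper and within the middle level the range over libraries of each gene overlapped that of its neighbour in the order of means, although Sdc4 was above Met in each of the 4 libraries; the steps from Itga7 to Chrna1, from Chrnb1 to Musk, from Musk to Mymk and from Mymk to Mymx were larger than the spread over the 4 libraries. Among the 16304 genes with a mean of at least 0.5 TPM, Sdc4 ranked 701 by mean level and Mymk ranked 13195.

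**Figure D1:**
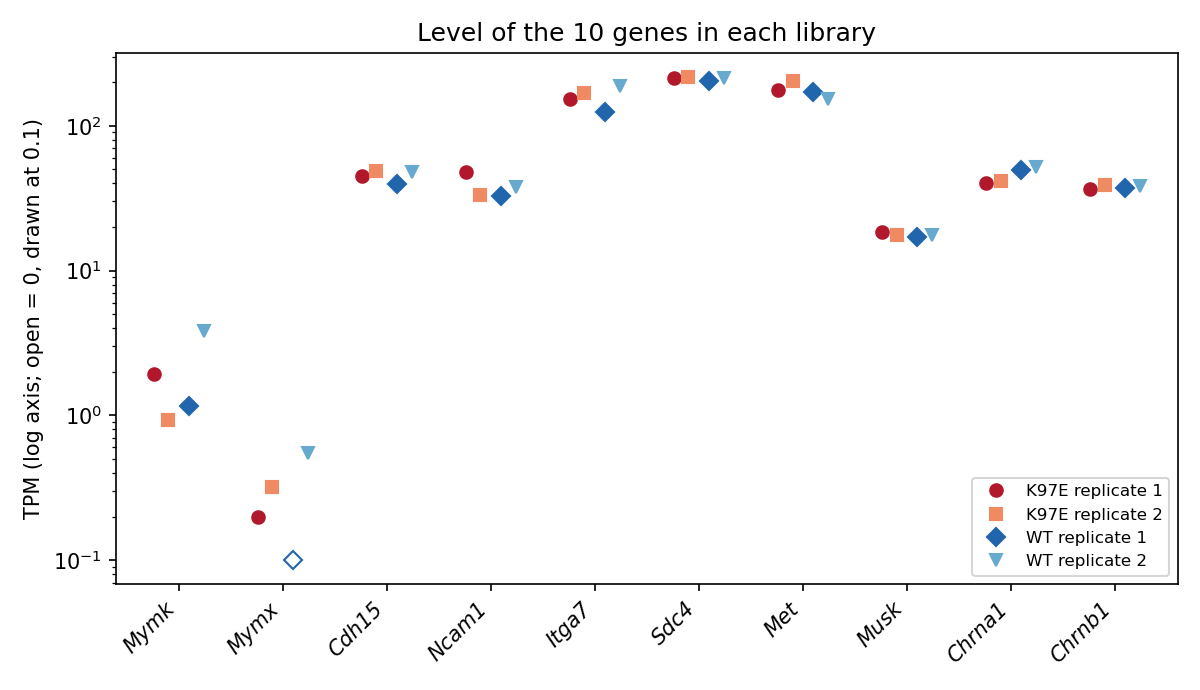
Level of each of the 10 genes in TPM, on a log axis, with 1 point per library (K97E replicates in red and orange, wild-type replicates in dark and light blue) and the open marker at 0.1 standing for a value of 0. The 5 levels are seen in every library, and Chrna1 is the only gene with both K97E points below both wild-type points.

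None of the 10 genes was called as changed. In such bulk RNA fewer cells that express a gene and less of its RNA per cell cannot be told apart. Genes were tested with limma across all 16304 genes after scaling of the libraries, and 9 of the 10 passed the filter on level, Mymx being below it. Of these 9, 0 reached an adjusted p of 0.05, and 1, Chrna1, had an unadjusted p under 0.05; over all tested genes 1 was called (0.00613%), with K97E above wild type, and 600 (3.68%) had an unadjusted p under 0.05, by the same limma fit. The fold changes of the 9 were positive for 4 genes and negative for 5, with a median of -0.01 on the log2 scale, against 8075 positive and 8229 negative with a median of 0.00 over all tested genes. On deposited TPM the groups did not overlap for 3 of the 9, Sdc4 and Met with K97E above wild type and Chrna1 below it, against 35.6% of all tested genes (25.9% above and 9.72% below), so the share of the members was near the background. After scaling only Chrna1 was still separate, against 33.1% of all tested genes (16.8% below).

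**Figure D2:**
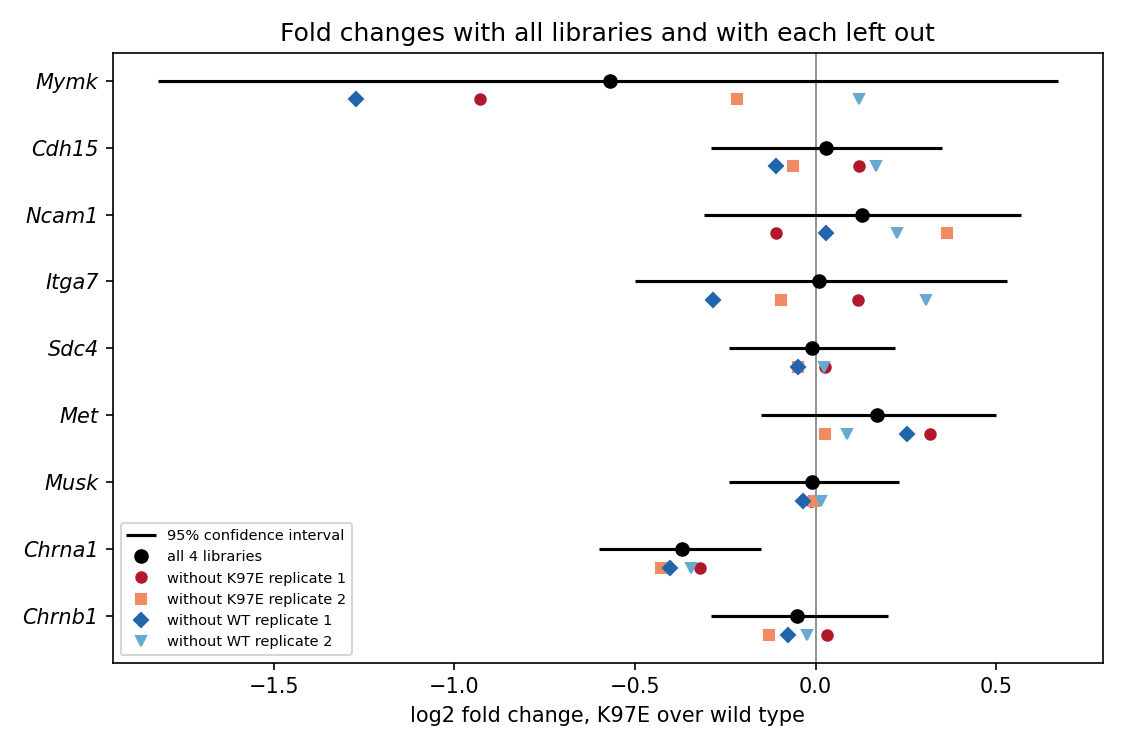
Log2 fold change of K97E over wild type for the 9 tested genes, with black points and bars for the limma value and its 95% confidence interval and coloured markers for the value with 1 library left out. The Chrna1 interval, -0.60 to -0.15, is the only one that does not reach 0 before adjustment, and the Mymk values spread from -1.27 to 0.12 as libraries are left out.

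The fusion genes were the lowest of the 10. Mymk encodes myomaker, a multipass membrane protein required for myoblast fusion (ENSMUSG00000009214; GRCm39 chromosome 2, 26951648 to 26962191, minus strand). It stood at 1.92 and 0.926 TPM in the K97E libraries and at 1.16 and 3.83 TPM in those with wild-type lamin A. WT replicate 2 was the highest, and the K97E values lay on both sides of WT replicate 1, so the groups overlapped. The log2 fold change was -0.57 ± 0.50 (SE; 95% confidence interval -1.82 to 0.67), with a limma adjusted p of 0.965. Without WT replicate 2 the fold change was 0.12, and without WT replicate 1 it was -1.27, so each wild-type library decides the value. All of its TPM belonged to the transcript ENSMUST00000009358, of 5 exons. WT replicate 2 was also the highest library in each of those 5 exons, at 1.58 to 6.22 on the TPM-equivalent scale, which is exon coverage multiplied by the ratio of TPM to coverage in that library.

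Mymx encodes myomixer, the small membrane protein that completes fusion with myomaker (ENSMUSG00000079471; GRCm39 chromosome 17, 45911897 to 45913028, minus strand). It stood at 0.199 and 0.322 TPM in the K97E libraries and was listed at 0 and at 0.547 TPM in the wild-type libraries. These correspond to about 8.44 and 9.57 reads with K97E and 0 and 21.0 reads with wild-type lamin A, as estimated from coverage. The lowest and the highest values were both wild type, so the K97E values lay within the spread of the wild-type libraries. Without the filter on level the log2 fold change was 0.05 ± 0.41 (SE), a limma adjusted p of 0.991. As with Mymk, WT replicate 2 was the highest library.

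The low level of the fusion genes stood beside a low level of other genes of differentiation. Of 16 early differentiation markers 6 passed the filter on level, 0 were called, and 2 had positive and 4 negative fold changes, with a median of -0.04. The list summed to 62.7 and 49.2 TPM with K97E and 53.8 and 51.3 TPM with wild-type lamin A, most of it from cardiac-type troponin T, Tnnt2, at 49.7 and 36.4 TPM with K97E and 41.8 and 35.7 TPM with wild-type lamin A. Troponin C, Tnnc1, followed at 6.78 and 7.20 TPM with K97E and 6.38 and 7.46 TPM with wild-type lamin A. WT replicate 2 was the highest library for 6 of the 14 markers above 0, several of which lie far below the filter, and for 2253 of all 16304 tested genes (13.8%). One of them, the myosin light chain Mylpf, singled out after its values were seen, had 1.44 and 1.24 TPM with K97E and 1.39 and 2.89 TPM with wild-type lamin A. Whether the level of such genes in WT replicate 2 has a part in the Mymk value was not tested.

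The adhesion genes were at similar levels in both groups. Cdh15 encodes M-cadherin, the calcium-dependent adhesion molecule of myoblasts and satellite cells (ENSMUSG00000031962; GRCm39 chromosome 8, 123574705 to 123594136, plus strand). It had 44.6 and 48.4 TPM in the K97E libraries and 39.7 and 48.2 TPM in the wild-type libraries, with WT replicate 1 the lowest and the other 3 close together. This gave a log2 fold change of 0.03 ± 0.13 (SE; 95% confidence interval -0.29 to 0.35), a limma adjusted p of 0.990. The annotation gives it 1 transcript, of 14 exons. In 12 of these the groups overlapped as deposited, with K97E above wild type in 1 and below it in 1. Over the exons of all tested genes the deposited shares were 29.4% above and 7.98% below.

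Ncam1 encodes the neural cell adhesion molecule, an immunoglobulin-family protein whose forms change as muscle differentiates (ENSMUSG00000039542; GRCm39 chromosome 9, 49413436 to 49710225, minus strand). It had 48.2 and 33.0 TPM in the K97E libraries and 32.7 and 37.5 TPM in the wild-type libraries. K97E replicate 1 was the highest, the other 3 were within 5 TPM of each other, and the groups overlapped. The log2 fold change was 0.13 ± 0.18 (SE; 95% confidence interval -0.31 to 0.57), a limma adjusted p of 0.965, and without K97E replicate 1 it was -0.11. Exons of the low-level gene Gm11149 on the opposite strand share 417 bases with Ncam1 exons, and because the authors' estimates used no strand option reads there cannot be told apart; Gm11149 was at 0.049 to 0.185 TPM.

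By deposited exon coverage the Ncam1 RNA of both groups held little of the muscle-specific exons of 15, 48 and 42 bases. These are known to be spliced in as myoblasts become myotubes. The 15-base exon was covered at 2.06% and 2.95% of its flanking exons in the K97E libraries and at 4.23% and 0.399% in the wild-type libraries. The 48-base exon was at 1.37% and 0.707% with K97E and 3.00% and 1.72% with wild-type lamin A, and the 42-base exon was at 0.430% or less with K97E and 0.721% or less with wild-type lamin A. The short exon of 30 bases was at 1.32% and 1.82% with K97E and 0.650% and 1.90% with wild-type lamin A. The exon of 801 bases that belongs to the NCAM form with the longest cytoplasmic tail was at 11.3% and 9.60% with K97E and 12.3% and 11.7% with wild-type lamin A. These shares are small in every library. An exon of 3 bases in ENSMUST00000194252, between the same flanking exons as the muscle-specific exons, was covered more. It was at 18.4% and 22.2% with K97E and 55.3% and 21.4% with wild-type lamin A. The last exon of the short transcript ENSMUST00000114476, which ends before the exons of the membrane-spanning forms, stood at 38.1% and 33.2% of its flanks with K97E and at 78.4% and 45.3% with wild-type lamin A; that transcript held 13.7% and 13.1% of the gene's TPM with K97E and 17.5% and 15.5% with wild-type lamin A. The coverage of this last exon itself was 95.3 and 56.3 with K97E and 88.3 and 78.0 with wild-type lamin A. The TPM of its transcript was 6.633 and 4.315 with K97E and 5.724 and 5.825 with wild-type lamin A. In these values the groups overlapped, while in the shares of flanks and of gene TPM they did not, which was not tested. The groups were also separate for the 48-base and 801-base exons above and for the share of ENSMUST00000166811 below. The share of all transcripts or alternative exons that separate in this way was not computed. For deposited gene TPM the groups did not overlap for 35.6% of all tested genes. ENSMUST00000193547 held between 66.4% and 69.8% of the TPM in the 4 libraries, and ENSMUST00000166811 held 5.51% and 13.0% with K97E and 2.75% and 5.07% with wild-type lamin A.

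Coverage was less even along the genes in WT replicate 1 than in the other 3 libraries, and this touches every exon value given here. Over the 9 genes above the filter the coefficient of variation of coverage across the exons of the main transcript was highest in WT replicate 1 for 9 of 9 genes, with a median of 34.2%, against 26.0% and 28.2% in the K97E libraries and 27.7% in WT replicate 2. The same held for 7332 of the 9518 tested genes with at least 5 exons (77.0%). Its part in the Ncam1 end values was not tested.

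**Figure D3:**
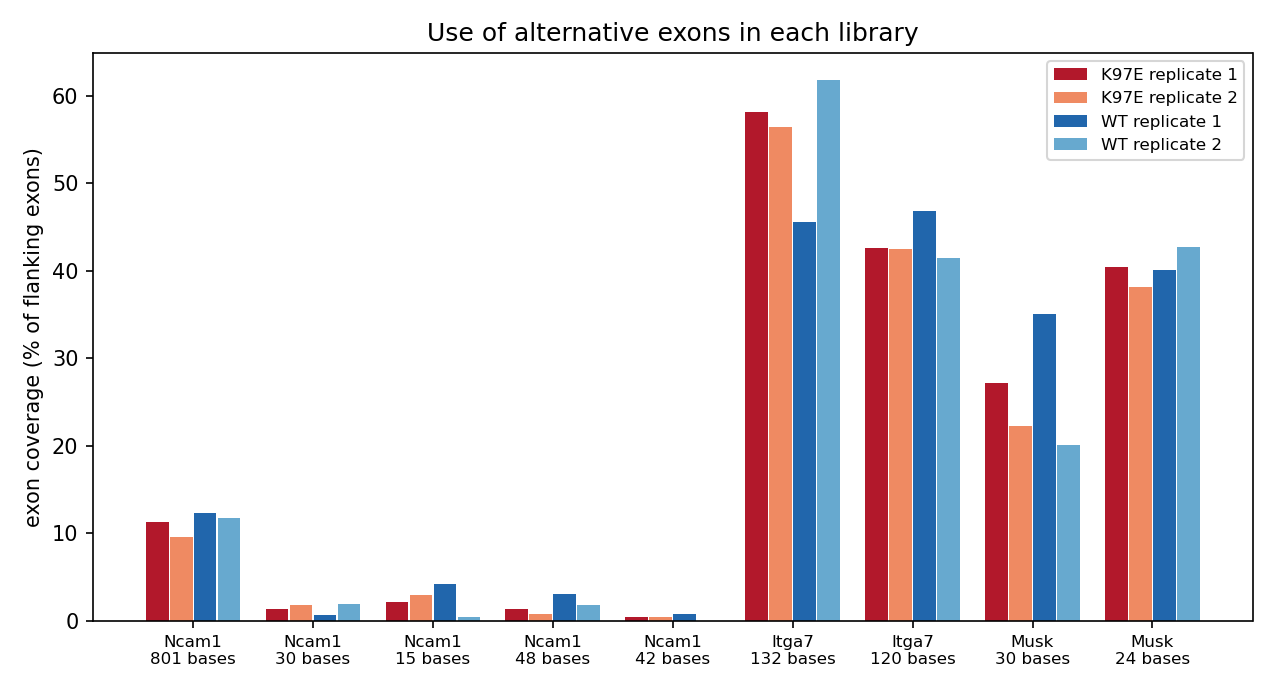
Coverage of 9 alternative exons of Ncam1, Itga7 and Musk as a percentage of the mean coverage of the exons of the main transcript on either side, with 1 bar per library (K97E replicates to the left of wild-type replicates). The Ncam1 muscle-specific exons of 15, 48 and 42 bases stay under 5% in all 4 libraries. The Itga7 exons of 132 and 120 bases are both set against the neighbours they share. The longer stands at 58.2% and 56.4% with K97E and 45.5% and 61.8% with wild-type lamin A. The shorter stands at 42.6% and 42.5% with K97E and 46.9% and 41.4% with wild-type lamin A.

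Itga7 encodes integrin alpha 7, which with the beta 1 chain makes the main laminin receptor of muscle (ENSMUSG00000025348; GRCm39 chromosome 10, 128769687 to 128794151, plus strand). It had 152 and 169 TPM in the K97E libraries and 125 and 187 TPM in the wild-type libraries. Both K97E values lay between the wild-type values. Between the group means lay a log2 fold change of 0.01 ± 0.21 (SE; 95% confidence interval -0.50 to 0.53), a limma adjusted p of 0.996. It was 0.31 without WT replicate 2 and -0.28 without WT replicate 1. In 25 of its 25 exons the groups overlapped. Exons of Mettl7b on the opposite strand share 9 bases with it.

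Each exon of the alternative Itga7 pair held at least 40.1% of the coverage of the pair in every library, although the deposited transcript values give another picture. The exon of 132 bases held the larger part in all libraries but WT replicate 1. Of the coverage of the pair, the exon of 132 bases held 57.7% and 57.0% in the K97E libraries and 49.3% and 59.9% in the wild-type libraries. The K97E values lay between the wild-type values. The exon of 120 bases belongs to ENSMUST00000099112, which was credited with 11.9% and 13.2% of the gene's TPM with K97E and 12.5% and 14.3% with wild-type lamin A, whereas its own exon held 42.3% and 43.0% of the coverage of the pair with K97E and 50.7% and 40.1% with wild-type lamin A. ENSMUST00000218290, with the exon of 132 bases, was credited with 80.0% to 82.3% of the TPM in the 4 libraries. The 2 transcripts also differ elsewhere, and StringTie divides reads among them by a model, so the coverage of the exons and the share of the transcripts are different measures. An exon of 113 bases near the end of ENSMUST00000219427 was at 1.97% and 3.11% of its flanks with K97E and 3.42% and 1.45% with wild-type lamin A.

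Sdc4 encodes syndecan 4, a co-receptor for matrix and fibroblast growth factors (ENSMUSG00000017009; GRCm39 chromosome 2, 164266167 to 164285807, minus strand). It had 215 and 217 TPM in the K97E libraries and 204 and 214 TPM in the wild-type libraries. The K97E libraries were both above the wild-type libraries by deposited TPM, with a gap of about 1 TPM. After scaling the values were 206 and 217 with K97E and 208 and 218 with wild-type lamin A, and the groups overlapped. The log2 fold change was -0.01 ± 0.09 (SE; 95% confidence interval -0.24 to 0.22) with a limma adjusted p of 0.995, and it was 0.05 on TPM as deposited. All of the TPM came from ENSMUST00000017153, of 5 exons. On the scaled TPM-equivalent scale the groups overlapped in 4 of them and K97E was below wild type in 1. Over the exons of all tested genes the scaled shares were 21.4% above and 12.9% below.

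Of 16 genes for other syndecans and their partners 14 passed the filter and 0 were called, 9 with positive and 5 with negative fold changes and a median of 0.08. The glypican Gpc1 was the most abundant, at 332 and 312 TPM with K97E and 242 and 342 TPM with wild-type lamin A. The syndecan-binding adaptor Sdcbp had 244 and 208 TPM with K97E and 161 and 218 TPM with wild-type lamin A. For both genes WT replicate 1 was the lowest library and the groups overlapped.

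Met encodes the receptor tyrosine kinase for HGF (ENSMUSG00000009376; GRCm39 chromosome 6, 17463799 to 17573979, plus strand). It had 176 and 205 TPM in the K97E libraries and 171 and 152 TPM in the wild-type libraries. Both K97E libraries were above both wild-type libraries, K97E replicate 1 by only about 4 TPM over WT replicate 1, and the scaled values, 168 and 205 with K97E against 175 and 156 with wild-type lamin A, overlapped. This was a log2 fold change of 0.17 ± 0.13 (SE; 95% confidence interval -0.15 to 0.50), a limma adjusted p of 0.965, and it was 0.03 without K97E replicate 2 and 0.32 without K97E replicate 1. ENSMUST00000115443, of 22 exons, held 96.8% to 98.9% of the TPM. In 17 of these exons K97E was above wild type without overlap on the TPM-equivalent scale as deposited, against 29.4% of the exons of all tested genes, and after scaling of the libraries in 12, against 21.4%, with 10 overlapping. Exons of 1 gene share their libraries and are not replicates. K97E replicate 2 was the highest library in 22 of 22 exons, and as deposited the overlap in the other 5 came from WT replicate 1, as at exon 9 with 259 and 311 for K97E and 290 and 226 for wild-type lamin A.

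Of 16 genes of HGF and MET signalling 12 passed the filter and 0 were called, 7 with positive and 5 with negative fold changes and a median of 0.05. The adaptor Shc1 had 131 and 110 TPM with K97E and 98.2 and 117 TPM with wild-type lamin A, a log2 fold change of 0.11. Usp8, a deubiquitinase, had 75.3 and 69.0 TPM with K97E and 77.9 and 73.8 TPM with wild-type lamin A, a log2 fold change of -0.13. The ligand gene itself, Hgf, named because it is the ligand of MET and chosen after its values were seen, was at 59.6 and 62.9 TPM with K97E and 65.2 and 64.7 TPM with wild-type lamin A, and did not pass the test (limma adjusted p = 0.965).

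Chrna1 was the member that stood apart most between the groups. It encodes the alpha 1 subunit of the muscle acetylcholine receptor, which holds the binding site for acetylcholine (ENSMUSG00000027107; GRCm39 chromosome 2, 73393559 to 73410682, minus strand). It had 40.2 and 41.3 TPM in the K97E libraries and 49.8 and 51.8 TPM in the wild-type libraries. The libraries of each group were within about 2 TPM of each other, and both K97E libraries were below both wild-type libraries. The log2 fold change was -0.37 ± 0.09 (SE; 95% confidence interval -0.60 to -0.15). The limma p was 0.00737 unadjusted and 0.965 adjusted over all 16304 genes, so the difference did not pass the test. Over the settings that used all 4 libraries the unadjusted limma p lay between 0.00472 and 0.0231. The lowest came from a fit blocked on crossed replicate numbers, a pairing chosen after seeing the data. The highest came from the fit blocked on the replicate number of the labels. All settings reuse the same 4 libraries and are not separate support. The fold change lay between -0.43 and -0.32 as libraries were left out. Over all tested genes 414 (2.54%) had a fold change below 0 with an unadjusted p under 0.05 by limma.

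The difference in Chrna1 was not even along the gene. Its single annotated transcript, ENSMUST00000028515, has 9 exons, counted from the 5′ end. In exons 4 to 8 K97E was below wild type without overlap, both as deposited, against 7.98% of the exons of all tested genes, and after scaling, against 12.9%, as in exon 6 with 114 and 116 on the TPM-equivalent scale for K97E and 164 and 140 for wild-type lamin A. In exons 1, 2, 3 and 9 the groups overlapped, as in exon 2 with 67.3 and 73.0 for K97E and 62.2 and 95.8 for wild-type lamin A. As deposited, WT replicate 1 was below K97E in exons 1, 2 and 9 and had the highest value of all at exon 7, 222, against 160 in WT replicate 2 and 120 and 141 in the K97E libraries. WT replicate 2 was above both K97E libraries in 9 of 9 exons. The coefficient of variation across these exons was 45.5% and 46.9% with K97E and 60.9% and 44.2% with wild-type lamin A.

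The last exon, of 3093 of the 4386 bases of the transcript, was thinly covered in all libraries. It was at 15.2 and 14.3 with K97E and 13.4 and 19.8 with wild-type lamin A, so that the gene's TPM is well below the level of exons 2 to 8. Exon 1, at 29.6 and 31.5 with K97E and 28.2 and 40.9 with wild-type lamin A, was below the gene's TPM. The median over exons was 102 and 102 with K97E and 119 and 128 with wild-type lamin A on the TPM-equivalent scale. For Chrnb1 the same median was 35.3 and 37.8 with K97E and 35.8 and 36.8 with wild-type lamin A. The place of Chrna1 beside Chrnb1 in the middle level of gene TPM therefore includes this long exon in its length.

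**Figure D4:**
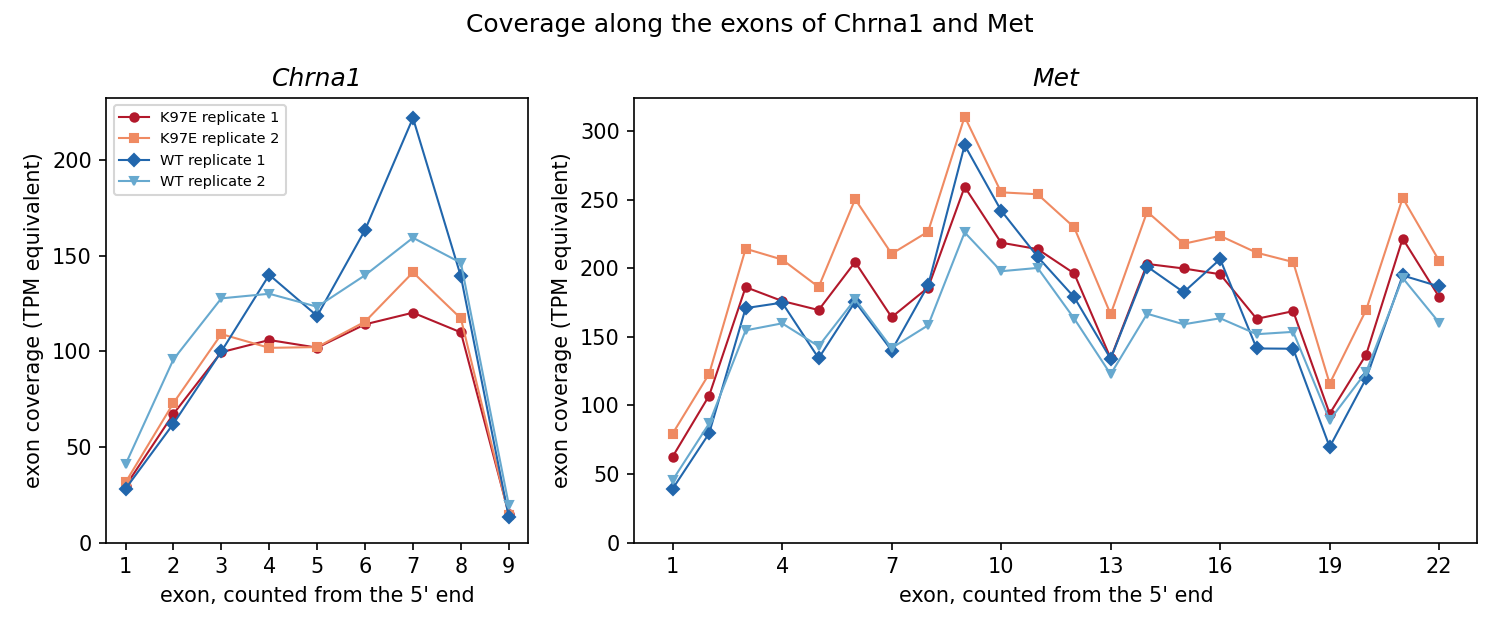
Exon coverage as TPM equivalent along the main transcript of Chrna1 (9 exons) and Met (22 exons), counted from the 5′ end, with 1 line per library. Both K97E lines of Chrna1 lie below both wild-type lines in exons 4 to 8, and the groups overlap elsewhere. For Met the line of K97E replicate 2 is the highest throughout.

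Chrnb1 encodes the beta 1 subunit of the same receptor (ENSMUSG00000041189; GRCm39 chromosome 11, 69674862 to 69686769, minus strand). It had 36.6 and 39.2 TPM in the K97E libraries and 37.0 and 38.3 TPM in the wild-type libraries. The K97E libraries were the lowest and the highest, with the wild-type libraries between them. Its log2 fold change was -0.05 ± 0.10 (SE; 95% confidence interval -0.29 to 0.20), a limma adjusted p of 0.974, and it was 0.01 on TPM as deposited and 0.03 without K97E replicate 1. ENSMUST00000045971, of 11 exons, held 94.1% to 96.6% of the TPM. As deposited the groups overlapped in 6 of its exons, K97E being above in 2 and below in 3. Over the exons of all tested genes the shares were 29.4% above and 7.98% below. After scaling K97E was above in 0 and below in 3, against 21.4% and 12.9% over all tested genes. Whether the fold changes of Chrna1 and Chrnb1 differ was not tested.

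The other receptor subunits completed the picture and were named for that, after their values were seen. Chrnd, the delta subunit, had 25.0 and 36.6 TPM with K97E and 32.9 and 35.6 TPM with wild-type lamin A, a log2 fold change of -0.23 ± 0.20 (SE, limma adjusted p = 0.965). K97E replicate 1 was low and the other 3 were close. Chrng, the subunit of the embryonic receptor, had 2.16 and 3.26 TPM with K97E and 2.74 and 6.17 TPM with wild-type lamin A, -0.61 ± 0.38 (SE, limma adjusted p = 0.965), with WT replicate 2 the highest as it was for Mymk and Mymx. Chrne, the subunit of the adult receptor, was listed at 0 in 3 libraries and at 0.0217 TPM in K97E replicate 2. Of the 4 subunits tested 0 were called.

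**Figure D5:**
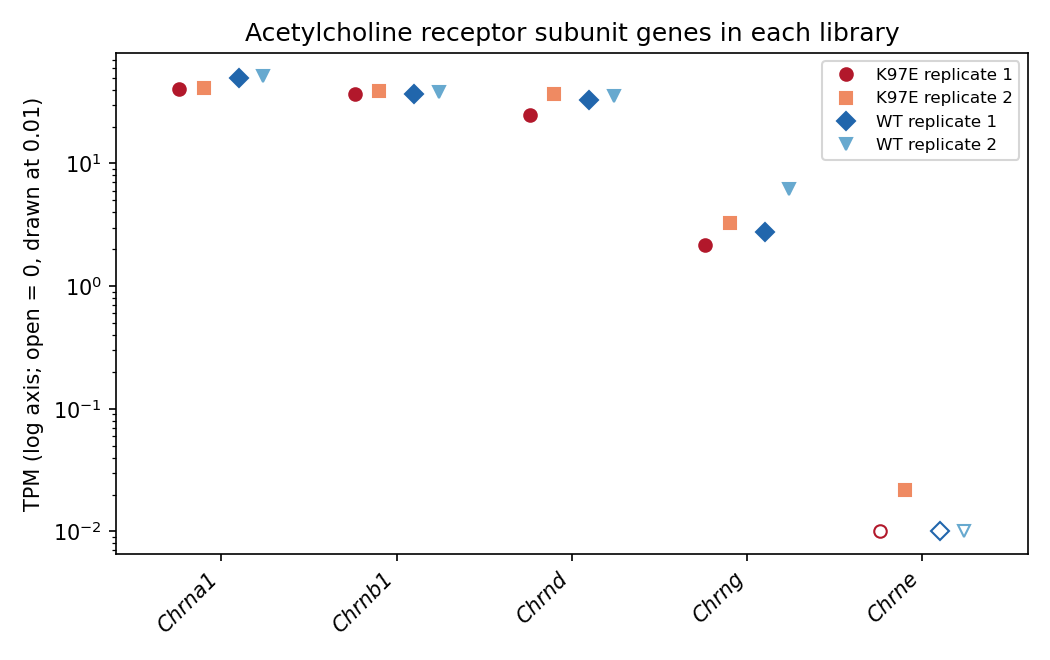
TPM of the 5 acetylcholine receptor subunit genes in each library, on a log axis, with open markers at 0.01 for values of 0. Chrna1 is the only one in which the 2 K97E libraries, on the left of each gene, lie below both wild-type libraries.

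Musk encodes the muscle-specific kinase that agrin activates through LRP4 to gather acetylcholine receptors (ENSMUSG00000057280; GRCm39 chromosome 4, 58285960 to 58374303, plus strand). It had 18.5 and 17.6 TPM in the K97E libraries and 17.1 and 17.7 TPM in the wild-type libraries, a spread of under 2 TPM in which the groups overlapped. On the log2 scale the fold change was -0.01 ± 0.09 (SE; 95% confidence interval -0.24 to 0.23), a limma adjusted p of 0.995. ENSMUST00000177951, which includes the 30-base exon, was credited with 78.7% to 84.1% of the TPM in the 4 libraries. Exon coverage gave another picture, with the 30-base exon at 27.1% and 22.2% of its flanks with K97E and at 35.1% and 20.1% with wild-type lamin A. As for Itga7, the coverage of an exon and the share of a transcript are different measures. The 24-base exon was at 40.4% and 38.1% with K97E and 40.0% and 42.6% with wild-type lamin A. The groups overlapped for both exons. Each was covered, but below the level of its flanks, in every library. Another exon, of 7 bases, is skipped by 3 of the annotated transcripts. It was at 80.4% and 103% of its flanks with K97E and 67.7% and 66.8% with wild-type lamin A. There the groups did not overlap, which was not tested. The share of all alternative exons that separate in this way was not computed.

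Of 19 other genes of the acetylcholine receptor and synapse 15 passed the filter, 0 were called, and 13 had positive and 2 negative fold changes, with a median of 0.10; the 2 negative ones were Chrnd and Chrng. Cortactin, Cttn, which binds actin, had 178 and 154 TPM with K97E and 155 and 161 TPM with wild-type lamin A. Agrin, Agrn, the matrix protein that signals to MUSK, had 126 and 106 TPM with K97E and 87.3 and 107 TPM with wild-type lamin A, a log2 fold change of 0.20 ± 0.13 (SE, limma adjusted p = 0.965). K97E replicate 1 was the highest library for 11 of these 19 genes and for 6660 of all 16304 tested genes, by deposited TPM.

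The wider fusion and adhesion lists also held no called gene. Of 30 adhesion and co-receptor partners of fusion that were matched, 24 passed the filter, 0 were called, and 15 had positive and 9 negative fold changes, with a median of 0.02. Galectin 1, Lgals1, led them with 4988 and 5391 TPM with K97E and 5473 and 5047 TPM with wild-type lamin A, followed by the tetraspanin Cd81 with 472 and 403 TPM with K97E and 417 and 457 TPM with wild-type lamin A. Of the 24, 2 had an unadjusted limma p under 0.05. The adhesion molecule Vcam1 had 45.8 and 52.6 TPM with K97E and 63.8 and 64.7 TPM with wild-type lamin A, and the disintegrin metalloprotease Adam12 had 1.94 and 2.66 TPM with K97E and 1.07 and 1.48 TPM with wild-type lamin A. Both were singled out after their values were seen, and neither passed the test (limma adjusted p = 0.965 for each).

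Of 29 genes of actin and membrane remodelling 28 passed the filter and 0 were called, 16 with positive and 12 with negative fold changes and a median of 0.02. Annexin A1, Anxa1, had 1724 and 1338 TPM with K97E and 1134 and 1718 TPM with wild-type lamin A, and caveolin 1, Cav1, had 866 and 621 TPM with K97E and 481 and 949 TPM with wild-type lamin A. In both genes the lowest library was WT replicate 1. Of 18 laminins and partners of integrin and NCAM 13 passed and 0 were called, 8 with positive and 5 with negative fold changes and a median of 0.06. The integrin-linked cytoskeletal proteins talin 1, Tln1, with 304 and 271 TPM with K97E against 243 and 273 TPM with wild-type lamin A, and vinculin, Vcl, with 203 and 150 TPM with K97E against 130 and 160 TPM with wild-type lamin A, were the most abundant. Of these 13, 1 had an unadjusted limma p under 0.05, the integrin beta 1 binding protein melusin, Itgb1bp2, with 0.440 and 0.388 TPM with K97E and 1.31 and 1.02 TPM with wild-type lamin A (limma adjusted p = 0.965); it was singled out after its values were seen. The polysialyltransferase St8sia2, which modifies NCAM, was at 0 in every library. In the other 11 lists 0 genes had an unadjusted limma p under 0.05.

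Of 9 myoblast identity markers 7 passed the filter and 0 were called, 1 with a positive and 6 with negative fold changes and a median of -0.14. Desmin had 401 and 384 TPM with K97E and 404 and 467 TPM with wild-type lamin A, and vimentin had 4174 and 3948 TPM with K97E and 3684 and 4098 TPM with wild-type lamin A. Endothelial markers summed to 21.0 and 22.2 TPM with K97E and 24.9 and 22.4 TPM with wild-type lamin A, mostly Cdh5, with Kdr and Tie1 at 0. Neural and Schwann cell markers summed to 8.30 and 7.21 TPM with K97E and 5.86 and 7.95 TPM with wild-type lamin A. Most of this was Tubb3, at 4.17 to 6.52 TPM, with Snap25 and Sox10 at 0. Markers of fibroblast and adipogenic progenitors summed to 5144 and 5590 TPM with K97E and 5666 and 5694 TPM with wild-type lamin A. Most of this was Ly6a, at 5039 and 5479 TPM with K97E and 5561 and 5598 TPM with wild-type lamin A. The K97E libraries were below the wild type in this sum, but the markers did not move together. Of the 8, 5 passed the filter and 0 were called, 3 with positive and 2 with negative fold changes and a median of 0.13. Pdgfrb had 74.5 and 70.9 TPM with K97E and 63.1 and 59.1 TPM with wild-type lamin A. A part of this list in the Chrna1 value was not tested.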

How the data were processed

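RNA-seq of C2C12 cells was used, 2 libraries with K97E and 2 with wild-type lamin A, from a stranded kit and paired reads of 100 bases, per the labels' protocols. The authors estimated Ensembl 104 transcripts on GRCm39 with StringTie 2.1.7 without a strand option, per the file headers; HISAT2, SAMtools, FastQC and DESeq2 are further names in the submitters' processing notes. The deposited values are TPM, FPKM and exon coverage, with no read counts. Gene TPM is the sum over transcripts; estimated reads are coverage times length over read length. TPM was divided by median-of-ratios factors (0.98 to 1.04), 0.5 was added before log2, and 16304 genes with a mean of at least 0.5 TPM were tested with limma 3.58.1 in R 4.3.3 (trend, two-sided, Benjamini-Hochberg, threshold 0.05). Such fold changes understate the change of low genes. An exact permutation test of 2 against 2 could not go below 0.333. The members and lists were chosen with earlier results of these data known. Named were, from each list, the 2 genes of highest mean TPM and any called gene, and of each member the transcripts with at least 10% of its TPM.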

Additional observations from a re-analysis of the deposited data

How the results depend on the processing

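No member was called under any of the 15 other settings, and the lowest adjusted p of a member was 0.301 (limma). Mymx entered only the fit with no filter on level, and neither Mymk nor Mymx could be fitted at a mean TPM of at least 5. Chrna1 and Met kept their sign in every setting run. Of 134 fold changes recomputed over the 9 tested members, 118 kept direction and 16 reversed. Without leaving out a library, the reversed log2 values were 0.0477 for Sdc4, 0.0489 for Musk and 0.0087 for Chrnb1 on TPM as deposited, 0.0233 for Sdc4 with quantile normalization, and 0.0183 for Sdc4 and 0.0195 for Musk on FPKM; the cause was not tested. TPM as deposited moved the median of all genes by 0.05 on the log2 scale and split the genes with an unadjusted limma p under 0.05 into 390 higher and 280 lower, against 186 and 414.

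The count of called genes over all tested genes, 1 as reported, was 2 on TPM as deposited and 2 with eBayes without trend, and it was 0 with no filter on level, where 1389 genes had an unadjusted limma p under 0.05. With the replicate number as a replicate block it was 0, with 406 at an unadjusted limma p under 0.05. Deviations of same-numbered libraries correlated at -0.137, so a block on crossed numbers, chosen after seeing the data, was added and called 30 genes. With each library left out the count ranged from 0 to 14, the 14 being without WT replicate 1.

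With each library left out in turn, where the lone library of a group is assumed to vary like the others, the log2 fold change ranged from -1.27 to 0.12 for Mymk, from -0.11 to 0.17 for Cdh15, from -0.11 to 0.36 for Ncam1, from -0.28 to 0.31 for Itga7, from -0.049 to 0.026 for Sdc4, from -0.034 to 0.016 for Musk, from 0.03 to 0.32 for Met, from -0.43 to -0.32 for Chrna1 and from -0.13 to 0.031 for Chrnb1. TPM gives no counts, so no counting interval was computed, and the number of libraries limits the precision.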
